A study of Drosophila melanogaster with 34 samples.

Results

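The 9 genes described here are the Notch receptor gene N, its ligand genes Dl and Ser, the modifier genes fng and kuz, the nuclear genes Su(H), H and mam, and the wing margin target ct. They were taken by their symbols from the 17641 gene symbols listed with a value, and all 9 were found and passed the filter on low values that left 9637 tested genes. Bulk RNA-seq had been made from whole wing imaginal discs, the larval epithelial sacs that form the adult wing and the body wall around it. The labels gave FRT82B (BL2035) as the control strain, whose discs were aged 4 or 5 days from the time the eggs were laid. Tumors were scrib-/- FRT82B from the scrib1 FRT82B/TM6B stock and were aged 4, 5, 6, 8, 10, 12 or 14 days after egg laying (AEL). All groups therefore carried FRT82B, a recombination site on chromosome arm 3R. By these genotype labels the tumors came from mutant larvae and not from mutant clones in a normal disc. Control discs of 4 days and tumors of 6 days had 3 libraries each, and the other 7 groups had 4 each, which made 34 libraries. Control discs were older than 5 days in no group, so that age and genotype cannot be told apart in later tumors.

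Notch is a transmembrane receptor that is activated by ligands on the neighboring cell, Delta (Dl) and Serrate (Ser). Ligand binding opens the receptor to a cut by the ADAM metalloprotease Kuzbanian (kuz), a further cut inside the membrane frees the intracellular domain, and this domain joins Suppressor of Hairless (Su(H)) and Mastermind (mam) on target genes. Hairless (H) binds Su(H) in the absence of the signal and brings in co-repressors. In the wing disc, Fringe (fng) adds a sugar to the receptor in dorsal cells, which favors its response to Dl over Ser, and Notch is then active along the dorsoventral boundary, where targets such as ct and wg mark the future wing margin.

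Values were CPM as the authors deposited them, read counts divided by a library size that they had scaled further. The libraries held between 18437402 and 26619424 reads on genes, with a median of 20397820. The least covered value of any member still rested on 323 reads in its library. The smallest level taken to differ from 0 was 3 reads, or 0.116 to 0.166 CPM. The spread between replicates of a member, as SD in percent of the group mean, ran from 1.14 to 22.7% with a median of 5.76%. The RNA of scrib itself was not lost in the tumors, at 571 ± 45.2 CPM (SD, n = 4) against 453 ± 57.2 (SD, n = 3) in control discs at 4 days and 690.2 ± 22.6 against 458 ± 13.6 (SD, n = 4 each) at 5 days. Its level therefore did not check the labels. All 8 markers of wing disc epithelium were detected in every group, but they did not move together. At 4 days tumors had 3 of them above and 4 below control discs, and at 5 days 3 above and 5 below. The lowest estimates were those of nub, a selector gene of the wing pouch (-5.34 and -4.21), and dpp, which encodes a BMP ligand, was higher at both ages (1.06 and 1.08). The sum of the 8 moved in the same directions as most members, from 1863 to 2075 CPM in control discs of 4 days to 2691 to 2829 CPM at 5 days, against 1652 to 1875 and 1848 to 2030 CPM in tumors. The summed level of 5 hemocyte markers was 85.1 to 218 CPM in tumors and 12.6 to 34.3 CPM in control discs at 4 days, and 28.5 to 102 against 8.54 to 16.8 CPM at 5 days, with none of the 5 at 0 in every library of a group. The sum of 2 tracheal genes was 753 to 813 against 327 to 348 CPM at 4 days and 1036 to 1072 against 257 to 286 CPM at 5 days. It hides opposite calls, as Gasp was higher and trh lower in tumors at both ages. The sum of 4 neuronal genes was 34.5 to 44.6 against 35.5 to 38.8 and 40.4 to 55.1 against 46.1 to 48.4 CPM, with 0 called at 4 days and 2 higher and 1 lower at 5 days. The sum of 5 fat body genes was 227 to 472 against 579 to 3979 and 767 to 1831 against 101 to 1074 CPM, with Lsp1gamma at 0 in control discs of 4 days. In tumors 1 fat body gene was higher and 2 lower at 4 days, and 3 were higher and 1 lower at 5 days. Over all tested genes 32.4% were higher and 28.6% lower at 4 days, and 39 and 32.5% at 5 days. The sum of 5 gut genes was 80.1 to 1589 against 15.1 to 2198 CPM at 4 days and 214 to 769 against 0.561 to 256 CPM at 5 days. The part of these shifts in the differences described here was not tested, and in RNA from whole discs fewer cells of a type and less RNA per cell cannot be told apart.

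**Figure D1:**
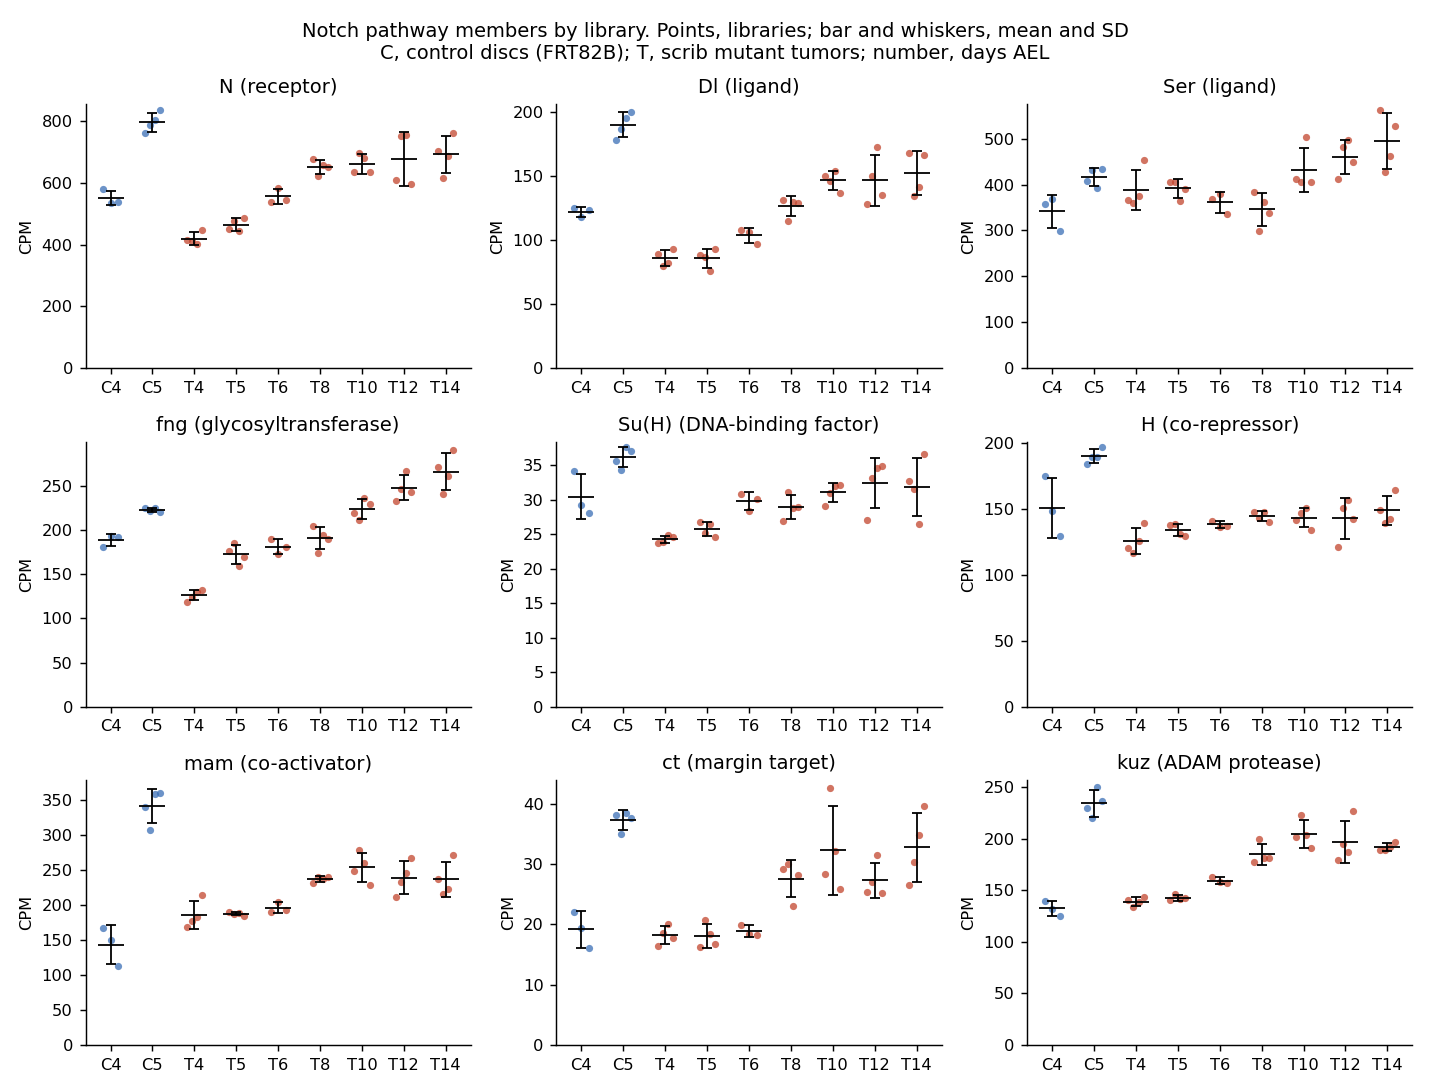
CPM of each member in every library by group, with control discs (C) in blue and scrib mutant tumors (T) in red, the number giving days AEL, and bars and whiskers the mean and SD. In every member but Ser, each of the 4 control discs of 5 days stands above every tumor of 4 to 8 days.

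Levels of different genes were compared per length as FPKM, with exon lengths from Ensembl release 115 of BDGP6. In control discs of 5 days fng was highest at 118 FPKM, followed by N at 81.3, Ser at 74.1, mam at 39.9, Dl at 37.4, kuz at 34.2, H at 32.8, Su(H) at 12.7 and ct at 3.11 FPKM. The ligand gene Ser thus had the higher level per length of the pair, and the transcript of the DNA-binding factor lay below those of its co-activator mam and co-repressor H. The genes lie apart in the genome, N at X:3134870-3172221 and ct at X:7608428-7678859, Dl at 3R:19302731-19326217, H at 3R:20621938-20628915 and Ser at 3R:27172090-27194267, fng at 3L:20925891-20949512, kuz at 2L:13550139-13639411, Su(H) at 2L:15039488-15043334 and mam at 2R:13991203-14060356. Exons were shared with other genes that have a value in fng, over 22 bases (1.12% of its exon length) with CG10589 on the other strand, and in kuz, over 27 bases (0.38%) with mir-2489 on the same strand.

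In early tumors most of these genes were lower than in control discs of the same age. At 5 days AEL 8 of the 9 members were lower in tumors with an adjusted p under 0.05 in limma, where 32.5% of all tested genes were lower, and none was higher, where 39% of all genes were. Only Ser did not pass the test. At 4 days the picture was more mixed, with N, Dl, fng, Su(H) and H lower (5 of 9, against 28.6% of all genes), mam higher (1 of 9, against 32.4%), and Ser, ct and kuz not past the threshold. The median estimate over the members was -0.26 at 4 days and -0.71 at 5 days on the scale of log2(CPM + 1), against 0.04 and 0.06 over all tested genes. Within tumors 1 member was called higher at 5 than at 4 days and 0 lower, with a median of 0.04, where 12.2% of all genes were higher. The control discs of 5 days enter both the genotype difference at 5 days and the change within control discs. All 9 members were higher at 5 than at 4 days in control discs, where 26.6% of all genes were higher and 27.2% lower. The median there was 0.53 against -0.02 over all tested genes. The libraries of the groups compared did not overlap in 5 members at 4 days (56.5% of all genes), in 8 at 5 days (69.1%) and in 9 within the control discs (55.8%). Leaving out any single library of the groups compared left 5 or 6 members called at 4 days, 8 at 5 days and 7 to 9 in the control discs.

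The receptor gene N was at 578, 535 and 538 CPM in control discs of 4 days and at 761, 785, 803 and 833 CPM in those of 5 days. Tumors had 413, 413, 401 and 448 CPM at 4 days and 449, 477, 442 and 487 CPM at 5 days. All tumor libraries of both ages lay below all control libraries, and the control groups did not overlap either. The tumor level was 76.1% of that of control discs at 4 days (log2 difference -0.39, standard error 0.070, adjusted p = 1.7e-05, limma) and 58.3% at 5 days (-0.78, standard error 0.065, adjusted p = 7.5e-12, limma). From there N rose in the tumors, to 555 ± 24.9 CPM (SD, n = 3) at 6 days and 651 ± 22.1 CPM (SD, n = 4) at 8 days, and both steps passed the test (0.26 and 0.23, adjusted p = 0.017 and 0.015, limma). It then stayed near this level, at 661 ± 31.4, 677 ± 87.2 and 691 ± 59.7 CPM (SD, n = 4 each) at 10, 12 and 14 days, steps that were not called. The call from 5 to 6 days ended without tumor replicate 3 of 5 days or replicate 2 of 6 days (adjusted p = 0.056 and 0.11, limma), and that from 6 to 8 days without replicate 1 or 3 of 6 days (0.073 and 0.059), with the estimates between 0.21 and 0.24.

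The ligand genes differed from each other. Dl was at 125, 118 and 124 CPM in control discs of 4 days and 178, 187, 195 and 200.3 CPM at 5 days, against 89.1, 79.7, 82.3 and 93.1 CPM in tumors of 4 days and 88.5, 86.7, 75.8 and 93.1 CPM at 5 days. No tumor library of these ages reached a control library, and the tumors of 4 and 5 days overlapped. At 5 days Dl had the lowest estimate of the members, with 45.3% of the control level (-1.14, standard error 0.078, adjusted p = 8.4e-14, limma), after 70.4% at 4 days (-0.50, standard error 0.085, adjusted p = 7.3e-06, limma). It rose in tumors to 104 ± 5.98 CPM (SD, n = 3) at 6 days. The level was 126 ± 7.78 CPM in tumors aged 8 days and 147 ± 7.27 CPM in those aged 10 days (SD, n = 4 each). Of these steps, that from 6 to 8 days (0.28, adjusted p = 0.014, limma) was lost only without tumor replicate 3 of 6 days (0.23, adjusted p = 0.089, limma), whereas the others rested on more libraries. That from 5 to 6 days (0.27, adjusted p = 0.042, limma) ended without tumor replicate 1, 2 or 3 of 5 days or replicate 1 or 2 of 6 days, and that from 8 to 10 days (0.22, adjusted p = 0.045, limma) without any one library but replicate 4 of 10 days.

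Ser, in contrast, was at 357, 368 and 299 CPM in control discs of 4 days and 408, 431, 392 and 433 CPM at 5 days, beside 367, 359.9, 375 and 454 CPM in tumors of 4 days and 406, 406, 364 and 390.3 CPM at 5 days. Tumor and control libraries overlapped at both ages. The estimates were 0.19 (95% interval about -0.01 to 0.38) at 4 days and -0.09 (about -0.27 to 0.09) at 5 days, with adjusted p of 0.098 and 0.39 in limma. Tumors of 8 days had the lowest mean of the tumors, 346 ± 36.7 CPM (SD, n = 4), and Ser then rose to 432 ± 48.3 CPM (SD, n = 4) at 10 days (0.32, adjusted p = 0.010, limma) and was at 495 ± 61.2 CPM (SD, n = 4) at 14 days. That step ended without tumor replicate 2 of 8 days or replicate 3 of 10 days (adjusted p = 0.054 and 0.06, limma). The higher level in control discs of 5 days than of 4 days (0.29, adjusted p = 0.013, limma) was lost without control replicate 3 of 4 days (0.20, adjusted p = 0.13, limma).

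Within a library the ratio of Ser to Dl was therefore higher in early tumors. The mean ratio of (CPM + 1) was 4.47 in tumors and 2.77 in control discs at 4 days, a difference of 0.69 in log2, and 4.52 against 2.18 at 5 days, a difference of 1.05. In both cases the libraries of the genotypes did not overlap (2-sided exact permutation test, p = 0.0286, the smallest possible with these groups, and 0.0429 when adjusted over 9 ratio tests). By 14 days the ratio in tumors was 3.23, lower than at 4 days by a log2 difference of -0.47 (adjusted p = 0.0429, exact permutation test). The 6 ratio tests that passed, those of mam to H included, share 1 adjustment. Without any one library of the tumors or control discs of 4 days, or without tumor replicate 1, 2 or 4 of 14 days, none passed (adjusted p = 0.0514 to 0.15). With a library of 4 days left out, the genotype tests at that age cannot pass, as their smallest possible p is then above 0.05. The other tests of Ser to Dl were lost through the shared adjustment. These losses therefore do not show that the ratio of Ser to Dl depends on any one library. Without tumor replicate 3 of 14 days only the rise of mam to H over tumor age missed (adjusted p = 0.0735, exact permutation test). The lowest mean log2 ratio of the tumors was found at 8 days, at 1.44 ± 0.08 (SD, n = 4), when Dl had risen and Ser had not.

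**Figure D2:**
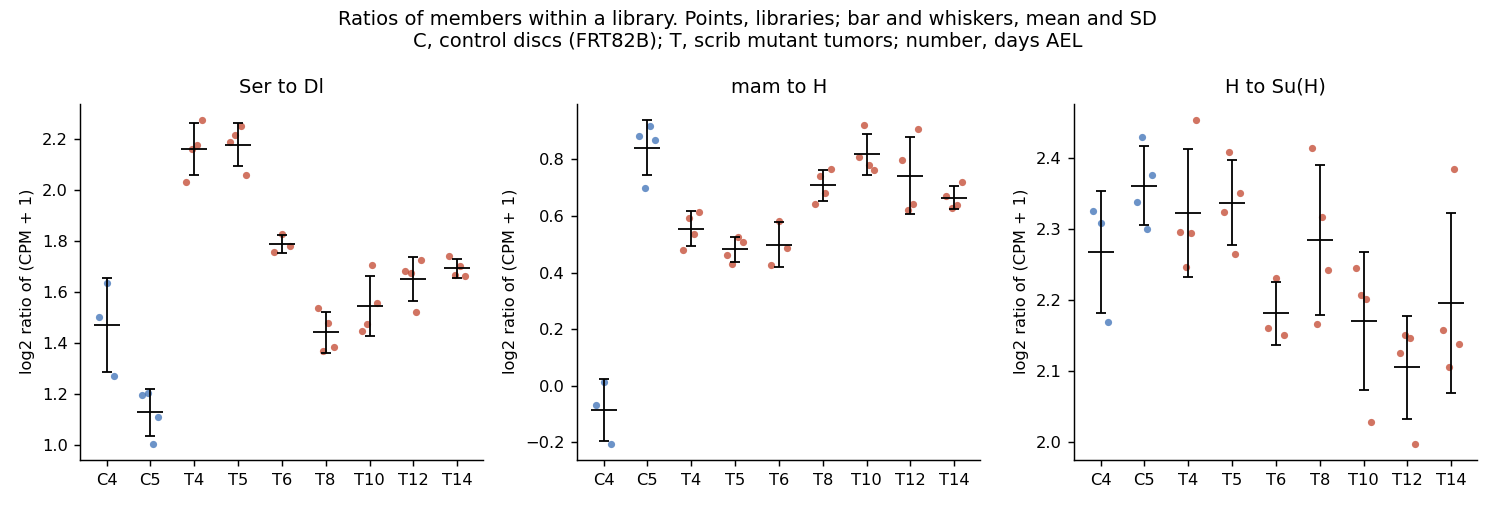
Log2 ratio of (CPM + 1) of Ser to Dl, mam to H and H to Su(H) in every library by group, with C for control discs, T for scrib mutant tumors, days AEL as numbers, and bars and whiskers for the mean and SD. The ratio of Ser to Dl is highest in tumors of 4 and 5 days (means 2.16 and 2.18), and that of mam to H is lowest in control discs of 4 days (mean -0.09).

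The glycosyltransferase gene fng had its lowest level at the first age of the tumors. It was at 181, 194 and 192 CPM in control discs of 4 days and between 220.2 and 225 CPM in the 4 of 5 days, against 119, 125, 129.7 and 133 CPM in tumors of 4 days and 176, 185, 159 and 169 CPM in tumors of 5 days. The genotypes did not overlap at either age. The difference was -0.57 (standard error 0.060, adjusted p = 1.3e-09, limma) at 4 days and -0.37 (standard error 0.055, adjusted p = 7.6e-07, limma) at 5 days. Among the members fng alone had a called step in tumors from 4 to 5 days, where it rose by 0.44 (standard error 0.055, adjusted p = 6.2e-07, limma) and 12.2% of all genes rose. It reached 224 ± 10.9 CPM at 10 days and 248 ± 14.3 CPM in tumors aged 12 days (SD, n = 4 each). Tumors of 14 days had 266 ± 21.0 CPM (SD, n = 4), and there all 4 tumor libraries were above all 4 control discs of 5 days. The rise from 8 to 10 days passed the test as well (0.23, adjusted p = 0.003, limma).

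For the protease gene kuz the genotypes overlapped at 4 days and were apart at 5 days. Control discs had 139.8, 132 and 125 CPM at 4 days and 229.6, 220.1, 251 and 237 CPM at 5 days, a change of 0.82 (standard error 0.058, adjusted p = 8.1e-13, limma). Tumors had 141, 134, 138 and 143 CPM at 4 days and 140.4, 146, 142 and 142 CPM at 5 days, a range that lay partly within that of the control discs of 4 days and below all of those of 5 days. The genotype difference was 0.07 (adjusted p = 0.30, limma) at 4 days and -0.71 (standard error 0.054, adjusted p = 7.4e-13, limma) at 5 days, when tumors stood at 60.9% of control discs. In tumors kuz was at 159 ± 3.26 CPM (SD, n = 3) at 6 days and 185 ± 10.1 CPM (SD, n = 4) at 8 days, a called step (0.21, adjusted p = 0.0071, limma), and at 205 ± 13.5 CPM (SD, n = 4) at 10 days. This last step (0.15, adjusted p = 0.048, limma) was lost without replicate 1, 3 or 4 of 8 days or replicate 1, 2 or 3 of 10 days.

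Among the nuclear factors, Su(H) was at 34.1, 29.2 and 28.0 CPM in control discs of 4 days and between 34.3 and 37.6 CPM at 5 days, against 23.7, 23.8, 24.8 and 24.6 CPM in tumors of 4 days and 26.7, 25.2, 26.4 and 24.6 CPM at 5 days. Every tumor library lay below every control library of its age, with differences of -0.31 (standard error 0.082, adjusted p = 0.0015, limma) and -0.47 (standard error 0.076, adjusted p = 2.4e-06, limma). The change within control discs (0.25, adjusted p = 0.012, limma) was lost without control replicate 2 or 3 of 4 days (adjusted p = 0.055 and 0.088, limma). No step between successive tumor ages was called for Su(H). The co-repressor gene H moved in a similar range, from 175, 148 and 129.5 CPM in control discs of 4 days to between 184 and 197 CPM at 5 days. In tumors it was between 117 and 139 CPM at 4 days and between 129.6 and 138 CPM at 5 days. The groups overlapped at 4 days (-0.26, standard error 0.077, adjusted p = 0.0047, limma), and this call was lost without control replicate 1 of 4 days, the highest of its group (-0.15, adjusted p = 0.11, limma). They did not overlap at 5 days (-0.50, standard error 0.071, adjusted p = 3.5e-07, limma). H had the smallest slope in tumors and no called step between successive ages. The ratio of H to Su(H) was 5.00 in tumors and 4.81 in control discs at 4 days and 5.05 against 5.14 at 5 days, with overlapping libraries and log2 differences of 0.05 and -0.02 (adjusted p = 0.571 for both, exact permutation test).

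The co-activator gene mam had the largest change of the members in control discs, and was the only one called in opposite directions at 4 and 5 days. It was at 167, 149.8 and 112 CPM in control discs of 4 days and 340.1, 308, 359 and 359.6 CPM at 5 days, a rise of 1.27 (standard error 0.097, adjusted p = 4.1e-12, limma) to 239% of the earlier mean. Tumors had 168, 177, 182 and 214 CPM at 4 days and between 185 and 190.1 CPM at 5 days, so that they were just above all control discs at 4 days and far below all of them at 5 days. The estimates were 0.38 (standard error 0.097, adjusted p = 0.0011, limma) and -0.86 (standard error 0.090, adjusted p = 9.5e-10, limma). Without control replicate 3 of 4 days, the lowest of its group, the estimate at 4 days was 0.22 (adjusted p = 0.039, limma). Relative to H, mam was at 1.47 in tumors and 0.942 in control discs at 4 days and at 1.40 and 1.79 at 5 days, log2 differences of 0.64 and -0.36 without overlap of the libraries (adjusted p = 0.0429 for both, exact permutation test). These calls were lost without the same libraries as those of Ser to Dl (adjusted p = 0.0514 to 0.15), with the same limit for libraries of 4 days. In later tumors mam rose from 196 ± 7.91 CPM (SD, n = 3) at 6 days to 237 ± 3.83 CPM (SD, n = 4) at 8 days (0.27, adjusted p = 0.035, limma), a step that was lost without any one library but replicate 1 of 8 days.

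The margin gene ct, which encodes a homeodomain protein, had the lowest level per length (FPKM) of the members in control discs of 5 days. Control discs had 22.1, 19.3 and 16.0 CPM at 4 days and 38.1, 34.9, 38.5 and 37.6 CPM at 5 days. Tumors had 16.5, 18.6, 20 and 17.7 CPM at 4 days, in the range of the control discs, and 16.3, 20.7, 18.4 and 16.7 CPM at 5 days, where none came near them. The difference was -0.06 (standard error 0.13, adjusted p = 0.70, limma) at 4 days and -1.01 (standard error 0.12, adjusted p = 1.7e-08, limma) at 5 days, 48.4% of the control level. It rose in tumors between 6 and 8 days, from 18.8 ± 0.96 CPM (SD, n = 3) to 27.6 ± 3.08 CPM (SD, n = 4), without overlap (0.52, standard error 0.13, adjusted p = 0.0038, limma). Adult muscle precursors, cells below the disc epithelium that also express ct, had marker sums of 143 to 170 CPM in tumors and 177 to 199 CPM in control discs at 4 days and of 144 to 151 against 207 to 231 CPM at 5 days over 5 genes, none of them at 0 throughout a group. These sums hide opposite calls, with 1 of the 5 genes higher in tumors and 3 lower at 4 days, and 1 higher and 4 lower at 5 days. Over all tested genes 32.4% were higher and 28.6% lower at 4 days, and 39 and 32.5% at 5 days. The part of these cells in the level of ct was not tested.

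**Figure D3:**
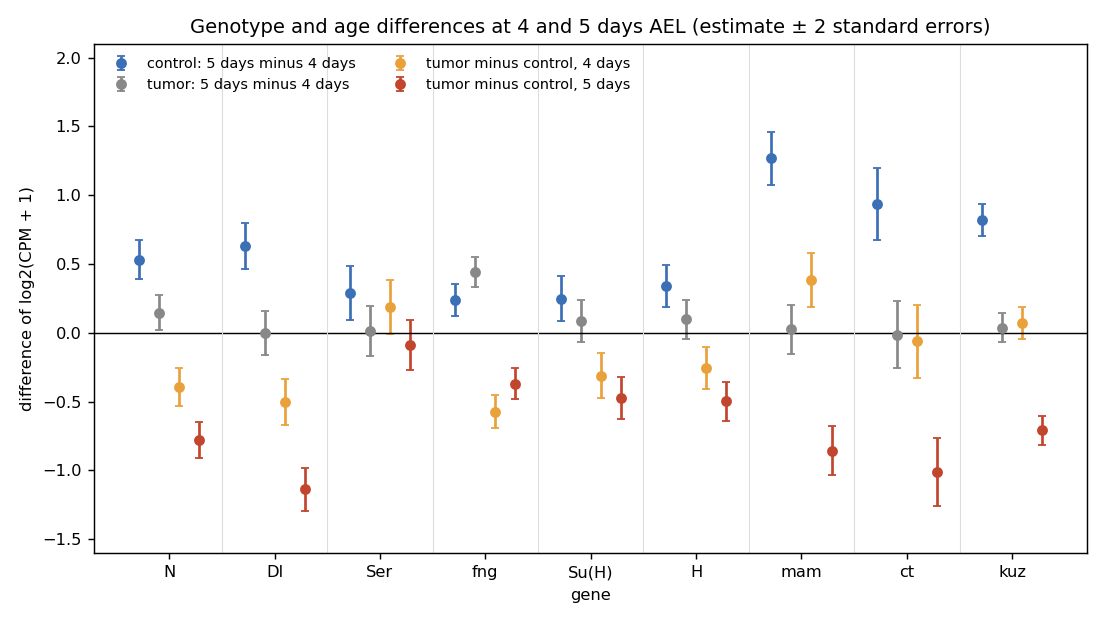
Estimated differences of log2(CPM + 1) for each member between ages within each genotype and between genotypes at each age, as points with whiskers of 2 standard errors. For mam, ct and kuz the change within control discs (1.27, 0.94 and 0.82) is far from that within tumors (0.02, -0.01 and 0.04).

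The genotype difference itself changed from 4 to 5 days in 6 of the 9 members. It moved down in 5, as in 19.2% of all tested genes, and up in 1, as in 19.4%. The change was -1.24 for mam (standard error 0.13, adjusted p = 8.7e-09, limma), -0.95 for ct (0.18, adjusted p = 9.3e-05), -0.78 for kuz (0.079, adjusted p = 3.5e-09), -0.63 for Dl (0.12, adjusted p = 5.8e-05) and -0.38 for N (0.096, adjusted p = 0.0019). In each of these 5 the control discs rose between 4 and 5 days and the step in tumors was not called. For fng the change was 0.20, toward a smaller difference at 5 days, and this call (adjusted p = 0.046, limma) did not hold in 4 alternative fits and was lost without any one of 11 of the 15 libraries, that is, all but control replicate 1 of 4 days, tumor replicates 3 and 4 of 4 days and tumor replicate 3 of 5 days. Ser, Su(H) and H did not pass the test (-0.28, -0.16 and -0.24).

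Over the whole series of tumors all 9 members rose with age, where 36.4% of the 9408 genes tested over the tumors rose and 40.8% fell. The slopes over 4 to 14 days were 0.09 log2 units per day for fng, Dl and ct, 0.07 for N, 0.05 for kuz, 0.04 for mam, Ser and Su(H), and 0.02 for H, with adjusted p between 5.2e-12 (fng) and 0.0018 (H) in limma. These amount to 0.92 log2 units over 10 days for fng and 0.19 for H. Markers of other cells moved over these ages as well. The summed adult muscle precursor markers were at 143 to 170 CPM in tumors of 4 days and 190 to 243 CPM at 14 days, with 4 of 5 rising, and those of wing disc epithelium at 1652 to 1875 and 2076 to 2373 CPM, with 6 of 8 rising and 1 falling. The fat body sum was 227 to 472 CPM at 4 days and 2.41 to 45.1 CPM at 14 days, with 3 of 5 falling. The gut sum was 80.1 to 1589 CPM and at most 0.336 CPM, with 5 of 5 falling and LysB and alphaTry at 0 at 14 days. Their part in the slopes was not tested. The rise of the members was uneven. Of 54 steps of a member between successive ages 12 were called, all upward. They fell between 4 and 5 days for 1 member (fng), between 5 and 6 days for 2 (4.5% of all genes rose), between 6 and 8 days for 5 (N, Dl, mam, ct and kuz, 13.1%) and between 8 and 10 days for 4 (Dl, Ser, fng and kuz, 11.3%). From 10 to 12 and from 12 to 14 days no step of a member was called, where 2.87 and 6.07% of all genes rose and 2.72 and 10.3% fell. Uncalled steps do not show that levels stayed the same. At 10, 12 and 14 days the means were 224, 248 and 266 CPM for fng and 432, 460 and 495 CPM for Ser. Those of mam were 254, 239 and 237 CPM and those of kuz 205, 197 and 192 CPM. Tumors of 10 and 14 days were not compared directly. Tumors of 4 to 8 days taken alone, a choice made after seeing the data, gave slopes of 0.16 for N, 0.15 for Dl and ct, 0.13 for fng, 0.11 for kuz, 0.09 for mam, 0.06 for Su(H) and 0.05 for H, all rising as 32.5% of all genes did. Ser instead fell over these ages, at -0.05 log2 units per day (adjusted p = 0.036, limma), as did 31.5% of all genes, so that its rise over the whole series rested on tumors of 10 days and older.

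Libraries of tumors of 10 and 12 days spread more widely in the level of roX1, a noncoding RNA of X chromosome dosage compensation in males. All those of 14 days had more of it than any tumor library up to 8 days. roX1 was between 180 and 367 CPM in each tumor library up to 8 days and between 238 and 338 CPM in control discs, but from 55.7 to 733 CPM at 10 days, 330 to 924 CPM at 12 days and 663 to 1030 CPM at 14 days. N and ct, the X-linked members, are given here beside it. In tumors of 12 days roX1 was at 924, 330, 334 and 738 CPM in replicates 1 to 4, and N was at 609, 749, 755 and 594 CPM in the same order. The autosomal ligand genes were also lower in replicates 1 and 4 there, with Dl at 128, 150.4, 173 and 135 CPM and Ser at 412, 481, 498 and 449 CPM. In tumors of 14 days the order differed, with roX1 at 991, 1030, 663 and 988 CPM and N at 703, 615, 686 and 759 CPM. The highest ct level of all libraries, 42.6 CPM, was in tumor replicate 2 of 10 days, where roX1 was at 55.7 CPM. The part of sex in these values was not tested.

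Set against the control discs of 5 days, the oldest controls, most members stayed lower in tumors of every age. These comparisons share the same 4 control libraries, and genotype and age differ together in them. At 6 days 8 members were lower (29% of all genes) and at 8 days 9 (29.6%). Tumors of 10, 12 and 14 days each had 6 lower members, against 32.2, 33.6 and 36.1% of all genes. N, Dl, H, mam and kuz were lower at each of these ages. Their tumor levels at 14 days were 86.8% (N), 80.2% (Dl), 78.4% (H), 69.3% (mam) and 81.8% (kuz) of the control mean, up from 58.3, 45.3, 70.7, 54.9 and 60.9% at 5 days. Su(H) was called lower at 14 days at 88.0% (adjusted p = 0.029, limma), a call lost without control replicate 3 or 4 of 5 days or tumor replicate 3 of 14 days (adjusted p up to 0.20), and its call at 10 days ended without tumor replicate 1 of that age (adjusted p = 0.052). At 12 days Su(H) was not called (-0.16, adjusted p = 0.064, limma) but was without tumor replicate 3 or 4. Ser was lower at 8 days only (-0.27, adjusted p = 0.0098, limma), and not without tumor replicate 2 of 8 days (-0.20, adjusted p = 0.061). The members above the control level were fng, higher at 12 days (1 of 9, against 34% of all genes) and at 14 days, and Ser at 14 days (2 of 9, against 35.6%). The estimates at 14 days were 0.25 for fng (standard error 0.055, adjusted p = 1.7e-04, limma) and 0.24 for Ser (0.090, adjusted p = 0.017). The call for Ser was lost without control replicate 3 of 5 days or tumor replicate 1 or 4 of 14 days (0.18 to 0.22, adjusted p = 0.052 to 0.089, limma). That for fng at 12 days (0.15, adjusted p = 0.017, limma) was lost without tumor replicate 3 (0.11, adjusted p = 0.083) and on the scale of library size alone (0.08, adjusted p = 0.22). ct was called lower at 6, 8 and 12 days, with 73.3% of the control mean at 12 days (-0.44, adjusted p = 0.0022, limma). At 14 days ct was at 87.9% and was not called (adjusted p = 0.15, limma). It passed there without tumor replicate 4 of 14 days (-0.29, adjusted p = 0.042, limma). At 10 days ct was not called either (adjusted p = 0.11, limma), but passed without replicate 2 (-0.36, adjusted p = 0.0071).

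**Figure D4:**
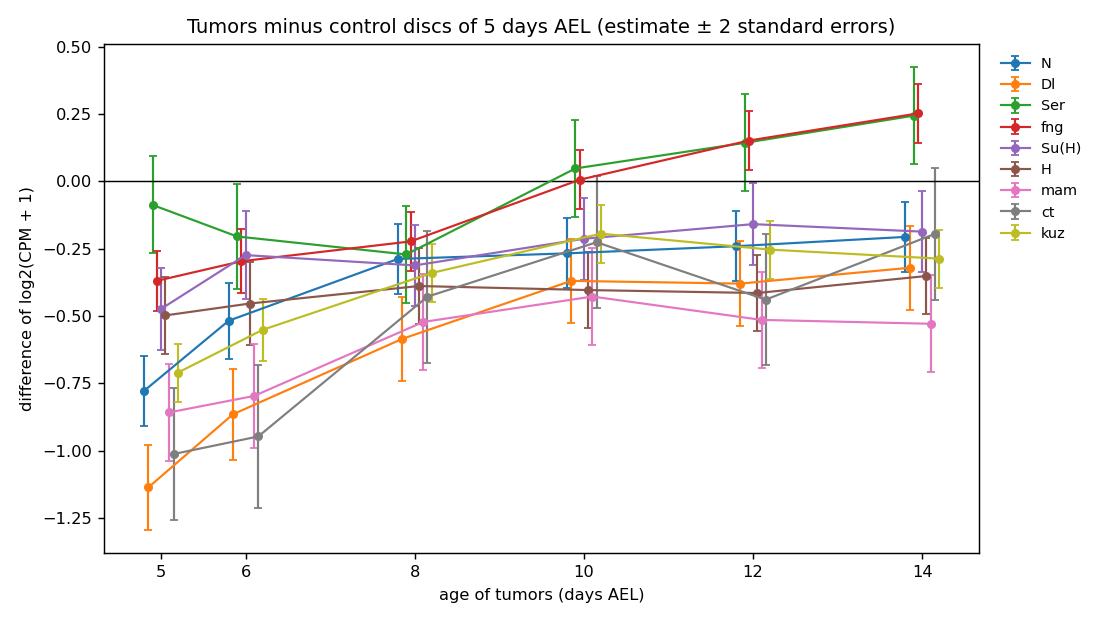
Differences of log2(CPM + 1) between tumors of 5 to 14 days and the control discs of 5 days for each member, as points with whiskers of 2 standard errors. All comparisons share the same 4 control libraries, and fng and Ser end at 0.25 and 0.24 while mam ends at -0.53.

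Ordered by their mean, control discs of 5 days stood first of the 9 groups for 7 members, and tumors of 14 days for Ser and fng. Tumors of 4 or 5 days came last for N, Dl, fng, Su(H), H and ct, and control discs of 4 days for Ser, mam and kuz. Most neighbors in these orders overlapped. Of the 8 pairs of neighboring groups, 3 were apart in all libraries for N, Dl and mam, 2 for fng and kuz, 1 for Su(H), H and ct, and 0 for Ser. Neither the orders nor the pairs apart were counted over all tested genes, so whether these counts are unusual was not tested. The highest group mean was 2.39 times the lowest for mam, 2.21 times for Dl and 1.45 times for Ser.

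Across all 34 libraries the genes with the profile most like a member were found by Pearson's r of log2(CPM + 1) among 6279 genes of at least 10 CPM. The libraries share ages and genotypes, so these values describe profiles and carry no test. For N they were sli (r = 0.970), lbk and 18w, for Dl CG2225 (0.962), SKIP and N itself (0.956), and for mam CG42389 (0.970), Mnt and kuz (0.927). For kuz they were fra (0.972), CG10936 and ClC-c, for ct pico (0.922), CG10936 and CG13082, and for H Sin3A (0.962), Spt20 and CG8677. For fng RhoBTB (0.952), CG17230 and Bsg25D were found, for Su(H) S (0.884), simj and Mad, and for Ser otk (0.845), ptc and Usp15-31. Ser thus had the lowest best value of the 9. All 36 pairs of members had a positive r, from 0.309 for Ser and H to 0.956 for N and Dl. The differences between the groups enter these values. For deviations from the group means 35 of the 36 were positive, from -0.163 for fng and kuz to 0.791 for H and mam, and N and kuz went from 0.855 to 0.013. The share of positive pairs over all genes was not computed.

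The rest of the pathway was followed with 42 listed genes, of which 41 had a value and 40 were tested. At 5 days 28 of the 40 were lower in tumors and 7 higher, with a median of -0.48, where 32.5% of all tested genes were lower and 39% higher. At 4 days 24 were lower and 11 higher, with a median of -0.30, where 28.6% of all genes were lower and 32.4% higher. In control discs 27 were higher and 5 lower at 5 than at 4 days, where 26.6% of all genes were higher and 27.2% lower. Over the tumor series 28 of 38 rose and 6 fell, where 36.4% of all genes rose and 40.8% fell. Among genes that act on ligands, the ubiquitin ligase gene neur was higher in tumors, at 21.7 ± 1.31 CPM (SD, n = 4) against 8.15 ± 0.83 (SD, n = 3) at 4 days and 18.01 ± 0.43 against 9.90 ± 1.40 (SD, n = 4 each) at 5 days (1.31 and 0.81, adjusted p = 9.2e-13 and 3.7e-09, limma), and fell with age. mib1, the other ubiquitin ligase for the ligands, was lower at 5 days (-0.26) and rose with age (0.04 log2 units per day), and lqf, which encodes an epsin, was higher (0.14).

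Of 8 measured genes that process the receptor or attach sugars to it, 6 were lower in tumors at 5 days and 0 higher, where 32.5% of all tested genes were lower and 39% higher. The lowest was O-fut1, which adds the O-fucose that Fringe extends, at 114 ± 2.08 CPM in tumors and 180.0 ± 1.79 in control discs (SD, n = 4 each, -0.66, adjusted p = 2.1e-11, limma). It also had the largest slope in tumors (0.09). The highest estimate at 5 days was that of the metalloprotease gene Tace, which was not called (-0.06), and nct, the nicastrin gene of the membrane protease, had the lowest slope (-0.02). Of 8 genes of receptor trafficking, 3 were lower and 4 higher at 5 days, shares near those of all tested genes (32.5 and 39%). dx, whose product binds the receptor's intracellular part, was at 117 ± 4.65 CPM in tumors and 215 ± 4.03 in control discs (SD, n = 4 each, -0.87), while l(2)gd1, an endosomal regulator of the receptor, was higher (0.71) and spdo, a cofactor of Notch in dividing precursor cells, had the lowest estimate (-1.28) at levels under 3 CPM. Nedd4, a ubiquitin ligase gene, had the largest slope of the list (0.09) and Gp150, an endosomal glycoprotein gene, the smallest (-0.03). All 4 nuclear partner genes (gro, CtBP, Bx42 and nej) were lower in tumors at both ages, from -0.16 for Bx42 to -0.55 for nej, the CBP gene, at 5 days. At 4 and 5 days 28.6 and 32.5% of all tested genes were lower. In tumors Bx42 rose with age (0.03) and the co-repressor gene CtBP fell (-0.02).

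The Enhancer of split (E(spl)) complex holds bHLH repressor genes and Bearded family genes that respond to Notch. Of 7 bHLH genes, 4 were lower and 1 higher in tumors at 4 days, where 28.6% of all tested genes were lower and 32.4% higher. At 5 days 5 were lower and 1 higher, where 32.5% of all genes were lower and 39% higher. The median was -0.36 and -0.98. The genotype difference moved down between these ages in 6 and up in 1, where 19.2% of all genes moved down and 19.4% up. The sum of the 7 was 143 to 166 CPM in tumors and 144 to 154 CPM in control discs at 4 days, and 112 to 125 against 196 to 230 CPM at 5 days. In tumors of 14 days the sum was 335 to 452 CPM, above all control discs of 5 days. Against those discs 3 of the 7 were higher and 2 lower at 14 days, where 35.6% of all genes were higher and 36.1% lower. E(spl)mdelta-HLH was at 0.71 ± 0.12 CPM in tumors (SD, n = 4) and 10.2 ± 0.93 CPM in control discs (SD, n = 3) at 4 days, and at 0.92 ± 0.30 and 18.4 ± 0.48 CPM (SD, n = 4 each) at 5 days (-3.35, adjusted p = 9.3e-20, limma). E(spl)m7-HLH was at 1.31 ± 0.19 CPM in tumors and 18.99 ± 3.19 CPM in control discs of 5 days (SD, n = 4 each, -3.10, adjusted p = 1.6e-18, limma), and had the largest slope of the listed pathway genes (0.32 log2 units per day), to 17.0 ± 0.40 CPM (SD, n = 4) at 14 days. E(spl)m3-HLH went the other way, at 74.8 ± 3.28 CPM in tumors (SD, n = 4) and 44.2 ± 2.97 CPM in control discs (SD, n = 3) at 4 days, and was at 116 ± 18.95 CPM (SD, n = 4) in tumors of 14 days. E(spl)mbeta-HLH was lower than control discs at 5 days (-0.98, adjusted p = 2.2e-10) and above those of 5 days by 14 days (0.94, adjusted p = 3.5e-10, limma), at 202.5 ± 36.1 against 104 ± 4.91 CPM (SD, n = 4 each). E(spl)mgamma-HLH had the smallest slope of the 6 tested (0.04), and E(spl)m5-HLH stayed under 2 CPM in its group means. E(spl)m8-HLH was at 6.73 ± 0.95 CPM in tumors against 19.9 ± 1.74 CPM in control discs of 5 days (SD, n = 4 each, -1.44, adjusted p = 7.6e-13, limma).

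Of 7 tested Bearded family genes, which encode inhibitors of Neuralized, 6 were lower in tumors at 4 days and 7 at 5 days, with medians of -1.68 and -1.75. Over all tested genes 28.6 and 32.5% were lower at these ages. E(spl)malpha-BFM had the lowest estimate at 5 days, at 5.31 ± 0.94 CPM in tumors and 71.4 ± 5.72 CPM in control discs (SD, n = 4 each, -3.53, adjusted p = 6.8e-21, limma), and the largest slope of the list (0.31), to 49.2 ± 6.47 CPM (SD, n = 4) at 14 days. Brd had the smallest difference at 5 days (-0.65), and E(spl)m4-BFM, which was not called at 4 days (0.13), was the only one without a called slope. Among boundary targets other than ct, wg, the Wnt ligand gene of the margin, was higher in tumors at 4 days (0.40, adjusted p = 0.0081, limma) and lower at 5 days (-1.27, adjusted p = 9.2e-11, limma), at 92.9 ± 18.2 against 69.2 ± 3.54 CPM (SD, n = 4 and 3) and 59.5 ± 6.25 against 144 ± 5.48 CPM (SD, n = 4 each). The wing gene vg was lower at both ages (-0.91 and -1.20) and had the largest slope of the 3 (0.06). At 4 days dpn was called lower, with the lowest estimate of the 3, and at 5 days it was not called (-0.33). The smallest slope was that of wg (0.01, not called). In tumors of 14 days 9 of the 40 genes were higher and 16 lower than control discs of 5 days, with a median of -0.06, where 35.6% of all tested genes were higher and 36.1% lower.

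**Figure D5:**
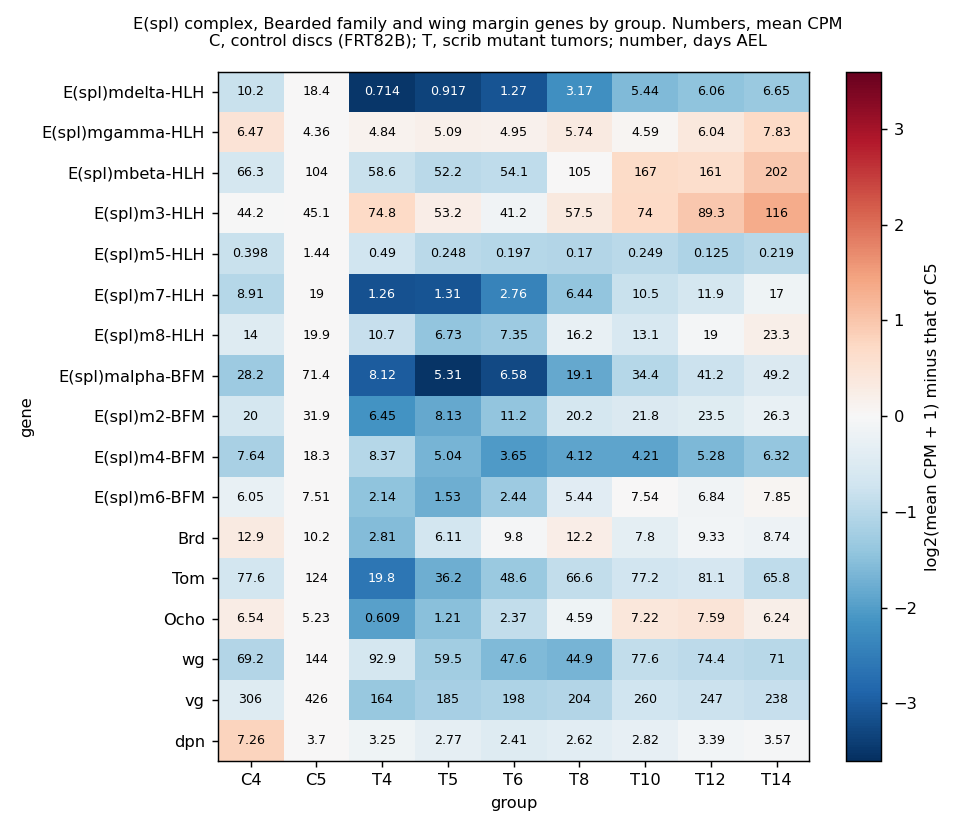
Mean CPM (numbers) of E(spl) complex, Bearded family and wing margin genes in control discs (C) and scrib mutant tumors (T) by days AEL, colored by the difference of log2(mean CPM + 1) from control discs of 5 days. E(spl)mdelta-HLH, E(spl)m7-HLH and E(spl)malpha-BFM are darkest blue in tumors of 4 to 6 days and paler in older tumors.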

How the data were processed

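RNA-seq of total RNA from whole wing discs was deposited as 1 table per library. The authors mapped reads to BDGP6 using STAR, assigned them to genes using featureCounts and obtained CPM in edgeR. The deposited values summed to between 919588.8 and 1054125.2 per library, above the 1000000 of plain CPM in 20 of them, so the authors had scaled them further. For 9 libraries with the highest sums the unit was recorded as signal, although the deposited values were made in the same way. Both kinds were whole multiples of 1 read for 100% of values, so reads and depth were recovered. No column came from another series (0). The members and gene lists were chosen with earlier results of these data known.

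Of the 17641 symbols 13801 (78.2%) were found in the annotation of Ensembl release 115, and all members were. The authors counted with default settings, under which featureCounts ignores strand, so reads of overlapping genes cannot be told apart. Genes were filtered with filterByExpr, and log2(value + 1) was fitted in limma 3.58.1 (R 4.3.3, lmFit and eBayes with trend) with 9 group means over all 34 libraries, on 9637 genes, or with age over the 27 tumors, on 9408 genes. Benjamini-Hochberg adjustment ran over every tested gene, and adjusted p under 0.05 was called. Fold changes on this scale understate those of genes at low CPM. Ratios of members within a library were compared by exact permutation tests. Alternatives were a pseudocount of 0.1, no filter, other scalings, edgeR 4.0.16 and DESeq2 1.42.0 on whole reads, the replicate block, fits of the compared groups alone, other fits of age and leaving out each library. The fits were tested on simulated data.

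Replicate numbers came from the labels. The study calls the replicates biological, and how many larvae each library held is not given in the sources used here. Named besides the members were the listed pathway genes with the highest and the lowest estimate at 5 days and in the slope, all E(spl) genes, scrib, and the 3 genes most like each member; nub, roX1, Lsp1gamma and genes named beyond this rule were chosen after their values were seen.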

Additional observations from a re-analysis of the deposited data

Results flagged for a closer look

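One library stood apart from the other 3 of its group in 3 of 63 tests of a member within a group, where chance gives about 1 in 20. Dl was at 115 CPM in tumor replicate 2 of 8 days, with the others between 129 and 132 CPM. Ser was at 454 CPM in tumor replicate 4 of 4 days, with the others between 360 and 375 CPM, and at 504 CPM in tumor replicate 3 of 10 days, with the others between 405 and 412 CPM.

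The difference between tumors and control discs changed from 4 to 5 days by a test of the change itself (limma) in 6 members. The change on the log2 scale was -0.38 for N, -0.63 for Dl, -1.24 for mam, -0.95 for ct and -0.78 for kuz, toward a lower level in tumors at 5 days, and 0.20 for fng.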

How the results depend on the processing

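Each group had 3 or 4 libraries, and each value of a member rested on at least 323 reads. Whether replicates or depth limited the precision was not tested. The counts of members called at 4 days (5 to 6), at 5 days (8 to 8) and over age in tumors (9 to 9) kept within these ranges with any one library left out. A pseudocount of 0.1 changed no call of a member.

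Replicate numbers did not pair the libraries: the mean correlation of deviations was -0.0119 over 129 pairs with the same number and 0.00399 over 384 pairs with another number, and 7 of 34 libraries correlated best with their own number. The fit with the replicate block changed 2 of the 144 calls of members, mam between 6 and 8 days (0.25, adjusted p = 0.062, limma) and kuz between 8 and 10 days (0.15, adjusted p = 0.056, limma).

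Estimates that changed sign had not passed the test, except the slope of Ser, which was called at 0.04 over all tumors and at -0.048 over tumors of 4 to 8 days. On the scale of library size alone the estimate was -0.0082 for Ser and -0.050 for fng in tumors of 10 days against control discs of 5 days, 0.0089 for H between 8 and 10 days, 0.014 for mam between 12 and 14 days and -0.047 for kuz between genotypes at 4 days. With DESeq2 size factors it was -0.0027 for Ser between tumors of 4 and 5 days and -0.022 for fng at 10 days against control discs. DESeq2 on whole reads gave -0.0070 and -0.0215 for these and 0.0014 for Dl between 10 and 12 days, and edgeR gave -0.031 for fng, 0.0068 for Dl and 0.0030 for H between 10 and 12 days.

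With any one library left out, estimates that changed sign ranged as follows between tumors of 4 and 5 days, from -0.0405 to 0.057 for Dl, -0.021 to 0.091 for Ser, -0.020 to 0.096 for mam and -0.081 to 0.030 for ct. Between 6 and 8 days Ser ranged from -0.12 to 0.0022. Between 8 and 10 days N ranged from -0.0041 to 0.040 and H from -0.040 to 0.016. Between 10 and 12 days N ranged from -0.029 to 0.086, Dl from -0.091 to 0.052 and H from -0.058 to 0.064. Between 12 and 14 days the ranges were -0.025 to 0.090 for N, -0.0030 to 0.14 for Dl, -0.11 to 0.054 for Su(H), -0.012 to 0.11 for H, -0.082 to 0.041 for mam and -0.075 to 0.035 for kuz. At 10 days against control discs they were -0.029 to 0.077 for Ser and -0.020 to 0.033 for fng, and between genotypes at 4 days -0.18 to 0.042 for ct. Counts over all tested genes with a library left out ranged from 491 to 753 between 5 and 6 days (814 with all), 250 to 639 between 10 and 12 days (539) and 965 to 1602 between 12 and 14 days (1576). Of the 9 ratio tests 0 to 6 passed, against 6 with all libraries. The 6 share 1 adjustment. Without a library of 4 days the smallest possible p rises, and without tumor replicate 1, 2 or 4 of 14 days the rise of mam to H over tumor age missed (adjusted p = 0.0857) and took the other 5 to 0.0514. Without tumor replicate 3 of 14 days that rise also missed (0.0735) and H to Su(H) over tumor age passed (-0.19, adjusted p = 0.0429, exact permutation test).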

Other observations

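The members span from 3847 bases (Su(H)) to 89273 bases (kuz) from the first to the last exon. In control discs the difference between 5 and 4 days was set beside this span for the 85.8% of tested genes that had one. The median was -0.09 log2 units over 5569 genes that span under 5 kb, 0.12 over 1934 genes of 5 to 20 kb, 0.24 over 543 genes of 20 to 50 kb and 0.33 over 223 longer genes, and 18.2, 43.1, 51.9 and 57.8% of these genes were called higher. Over the 9 members Spearman's rho between the estimate and the span was 0.717, with kuz, ct and mam, the longest, at 0.82, 0.94 and 1.27 and Su(H), the shortest, at 0.25. The medians in the same 4 span classes were 0.02, 0.07, 0.19 and 0.17 for tumors against control discs at 4 days (rho over the members 0.3), 0.10, -0.03, -0.02 and -0.03 at 5 days (rho -0.483), and -0.01, 0.01, 0.03 and 0.05 for the slope in tumors (rho 0.5). This describes genes of the same libraries, which are not independent, and its part in the differences was not tested.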
